A study of Mus musculus with 3 samples.

Results

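The genes described here encode the proteins with which cone photoreceptors turn light into an electrical signal, and they were read in the retina of young wild-type mice. They are the cone opsin genes Opn1sw and Opn1mw, the transducin genes Gnat2 and Gngt2, the phosphodiesterase genes Pde6c and Pde6h, the cone arrestin gene Arr3 and the channel gene Cnga3. A probe set, the group of short probes that reads a transcript on the array, was taken when the platform annotation gave it 1 of these symbols and no other. This found 5 of the 8 genes, Opn1sw, Gnat2, Gngt2, Opn1mw and Cnga3, with 1 probe set each, out of 8251 genes in all. The expression of Pde6c, Pde6h and Arr3 was not analysed here.

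Total RNA came from 3 samples of neural retina from mice at postnatal day 7 (P7), hybridised to MG-U74Av2 arrays. Each sample was a pool of retinas of 3 to 4 wild-type littermates of Rp1-/- mice, on a mixed background of 129/SvEv and C57BL/6, collected from 1 to 2 pm. The labels put all 3 in 1 group, so no conditions could be compared. The samples are called pools 1, 2 and 3, the numbers being names only. The labels do not give which littermates went into which pool, so the spread between pools may be partly technical.

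In a cone, light activates the opsin, which switches on transducin, a G protein made of Gnat2, Gnb3 and Gngt2 in cones. Transducin activates a phosphodiesterase, cyclic GMP falls and the cyclic nucleotide-gated channel, which contains Cnga3, closes. Arrestin then binds the opsin and ends the signal. Cones are a small minority of mouse photoreceptors, and most of the others are rods, which use a parallel set of genes. In the developing mouse retina the short-wavelength opsin gene is known to come on before the middle-wavelength one.

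The bases before the start of 3 of the genes are shown, because of the 2 opsin genes 1 had signal in every pool and the other in none, and Gnat2 varied least of the 3 genes with signal. They are the 250 bases before the start in the RefSeq table of build GRCm38.p6, which had an entry for 4 of the 5 measured genes. The stretches are chr6:29380514-29380763 on the minus strand for Opn1sw, chrX:74127216-74127465 on the plus strand for Opn1mw and chr3:108092816-108093065 on the plus strand for Gnat2. Capitals mark 3 motifs on either strand: TAATCC, its variant TAATCT, and AGGTCA.
Opn1sw: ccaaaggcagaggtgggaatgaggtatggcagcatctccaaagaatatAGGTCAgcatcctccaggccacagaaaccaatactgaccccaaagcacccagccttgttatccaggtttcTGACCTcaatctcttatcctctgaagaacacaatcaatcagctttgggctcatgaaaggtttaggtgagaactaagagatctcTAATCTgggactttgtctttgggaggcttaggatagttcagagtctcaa
Opn1mw: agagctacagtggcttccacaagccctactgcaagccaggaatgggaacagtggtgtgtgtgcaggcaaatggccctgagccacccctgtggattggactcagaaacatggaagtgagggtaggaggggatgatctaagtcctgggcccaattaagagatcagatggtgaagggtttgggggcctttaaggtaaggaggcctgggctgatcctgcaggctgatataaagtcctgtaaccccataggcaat
Gnat2: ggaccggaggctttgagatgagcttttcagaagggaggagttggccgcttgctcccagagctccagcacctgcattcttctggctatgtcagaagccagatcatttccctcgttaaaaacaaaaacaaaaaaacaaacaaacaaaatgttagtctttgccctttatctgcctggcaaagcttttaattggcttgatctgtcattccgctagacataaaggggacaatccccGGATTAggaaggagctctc

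TAATCC and TAATCT are letters that the photoreceptor homeodomain factor Crx is known to bind, and AGGTCA is the core bound by many nuclear receptors, thyroid hormone and ROR receptors among them. The Opn1sw stretch held TAATCT, beginning 49 bases before the start, and AGGTCA at 202 bases on the gene's strand and at 132 bases on the other strand. The Gnat2 stretch held TAATCC on the other strand, 19 bases before the start. None of the 3 motifs was in the Opn1mw stretch or in either of the 2 Cnga3 entries. Of the members whose expression was not analysed, Arr3 held TAATCT at 116, 102 and 10 bases before its start and Pde6h held none of the 3 motifs. Over 32851 stretches of the same length in the table, 6.25% held TAATCC, 7.31% TAATCT and 14% AGGTCA. Either TAATCC or TAATCT was in 12.8% of them. A match of letters is a description and no measurement of binding, and the motifs do not overlap each other.

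Intensities below were brought to 1 common array median, which moved pools 1, 2 and 3 by -0.06, 0.12 and -0.06 on the log2 scale. A gene counted as having signal when it passed the background bar, the 90th percentile of 55 measured genes of unrelated tissues, in every pool. The bar was 265, 292 and 292 in pools 1, 2 and 3. Of the 5 cone genes 3 passed it in all pools, where 46.1% of all 8251 genes did, a share close enough that the count alone says nothing particular of cones. Brightness of different probe sets does not rank transcripts, so each gene is set against the bar and against itself in the other pools.

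The opsin genes lay on opposite sides of the bar. Opn1sw, which encodes the short-wavelength opsin, had intensities of 1258, 2014 and 1674 in pools 1, 2 and 3, a mean of 1649 ± 379 (SD, n = 3). These were 4.75, 6.89 and 5.74 times the bar, and in every pool Opn1sw was brighter than all 55 genes of unrelated tissues. Pool 1 was the lowest and pool 2 the highest, 1.6 times apart. Opn1mw, which encodes the middle-wavelength opsin, was at 152, 49.0 and 168, a mean of 123 ± 64.5 (SD, n = 3). All 3 values were under the bar, at 0.573, 0.168 and 0.576 times its height, and pool 2 was the low one. Opn1mw was brighter than 44, 27 and 42 of the 55 genes of unrelated tissues in pools 1, 2 and 3. With the 75th percentile of those genes as the bar, Opn1mw passed in 2 of 3 pools. At that percentile and at the 95th the same 3 of 5 cone genes passed in all pools, where 59.4% and 38.1% of all genes did. A value under the bar is not a measured level and does not show that Opn1mw was silent.

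**Figure D1:**
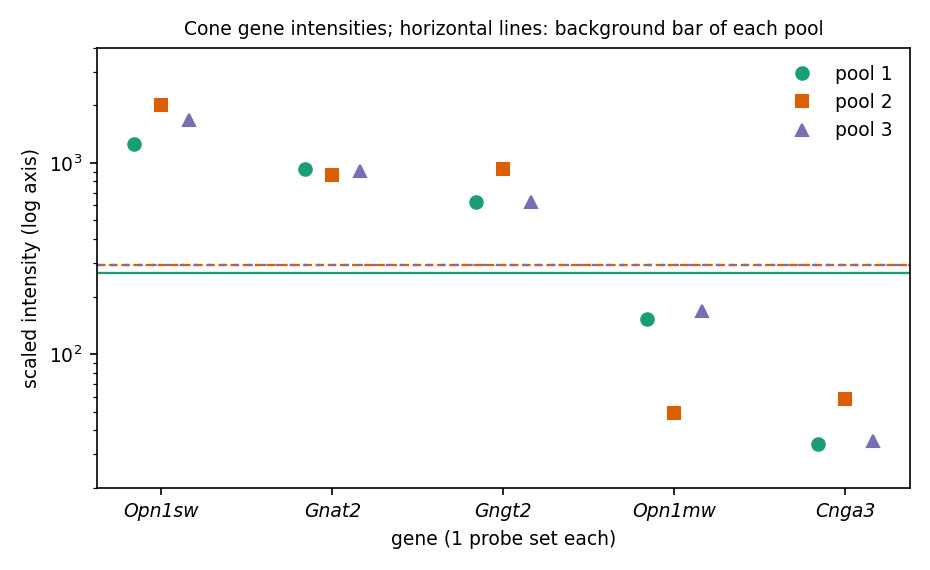
Scaled intensity of the 5 cone genes (vertical log axis) in each pool, with the bar of each pool as a horizontal line. The points of Opn1sw, Gnat2 and Gngt2 lie above the bars of 265, 292 and 292, and those of Opn1mw and Cnga3 lie below them; the bars of pools 2 and 3 coincide.

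The genes of cone transducin had signal in every pool. Gnat2, which encodes the alpha subunit that carries the signal to the phosphodiesterase, was at 931, 868 and 909 in pools 1, 2 and 3, a mean of 902 ± 32.1 (SD, n = 3). The highest pool was 1.07 times the lowest. Its SD on the log2 scale was 0.05, and 97.1% of the tested probe sets had a larger one. Gngt2, which encodes the gamma subunit that anchors the complex to the membrane, was at 626, 931 and 627, a mean of 728 ± 176 (SD, n = 3). Pools 1 and 3 were alike for Gngt2 and pool 2 was 1.49 times as bright as pool 1. In pool 3 Gngt2 stood at 2.15 times the bar, the closest approach of any of these 3 genes to it.

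Cnga3, the subunit of the cone channel, was at 33.7, 58.5 and 35.1 in pools 1, 2 and 3, or 0.127, 0.2 and 0.12 times the bar. It was brighter than 20, 31 and 19 of the 55 genes of unrelated tissues, and no pool passed the 75th percentile bar. The values of pools 1 and 3 were under the floor of 42.2 used before taking logarithms, where values have no order.

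No excess spread between pools was found for the 3 cone genes with signal. The variance over the pools was tested against the one that limma estimated from all probe sets of like mean, over the 6211 probe sets in the brighter 50% of the array. Of the 3 tested cone probe sets, 0 passed a limma adjusted p of 0.05, where 1.34% of all tested probe sets did (83 of 6211), and none at an unadjusted p below 0.05, where 6.76% did. The log2 SD of Opn1sw was 0.34, against a prior SD of 0.28 (limma adjusted p = 0.992). Gngt2 had 0.33 against 0.29 (limma adjusted p = 0.992) and Gnat2 0.05 against 0.28 (limma adjusted p = 0.999). Opn1mw and Cnga3 were too dim to be tested. A p of this size does not show that the pools were equal. On simulated data the test missed most changes of 2 times, the smallest size tried. The pools differed by less for these 3 genes, by 1.6 times at most.

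**Figure D2:**
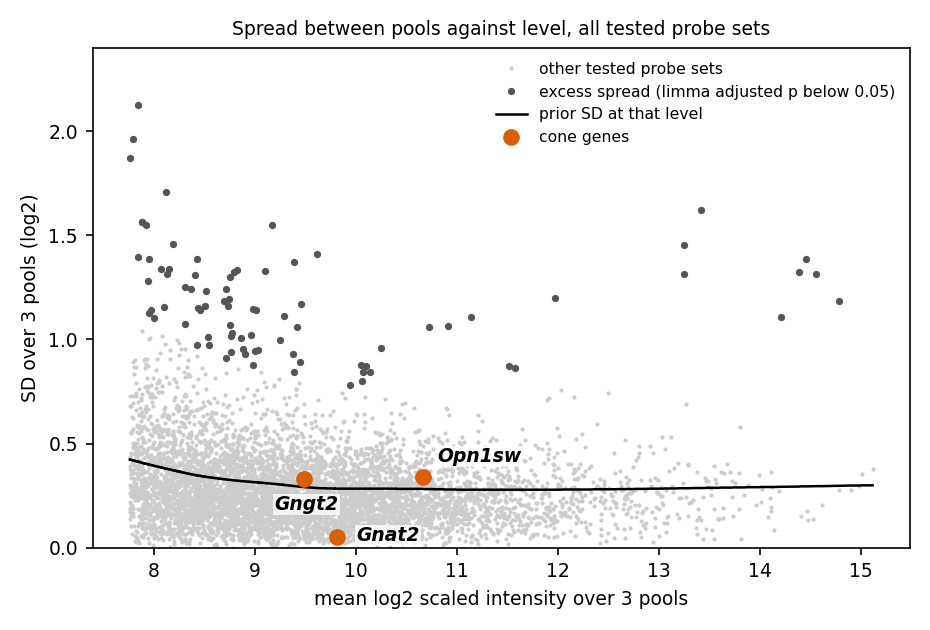
SD over the 3 pools (log2) against mean log2 scaled intensity for the 6211 tested probe sets, with the prior SD as a line. Opn1sw (0.34) and Gngt2 (0.33) lie near the line and Gnat2 (0.05) lies far below it; dark points are the 83 probe sets with excess spread.

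Deviations from each gene's mean over the pools placed Opn1sw and Gngt2 highest in pool 2. For Opn1sw they were -0.36, 0.32 and 0.05 (log2) in pools 1, 2 and 3, for Gngt2 -0.19, 0.38 and -0.19, and for Gnat2 0.05, -0.06 and 0.01. The median of the 3 genes was -0.19, 0.32 and 0.01, beside -0.04, 0.13 and -0.09 over the 3800 genes with signal. Over the 5 rod counterpart genes with signal, described below, it was -0.14, 0.18 and -0.04, in the same order of pools. The shared order did not hold after quantile normalisation. The rod counterparts then had -0.01, 0.02 and -0.06, lowest in pool 3, and the cone genes -0.17, 0.15 and 0.09, lowest in pool 1. Pool 2 was the highest for 2 of the 3 cone genes and for 57% of all genes with signal, a share that was 35.1% without scaling between arrays. Without scaling Opn1sw and Gngt2 were still highest in pool 2, at 1849 and 855.1. In such bulk samples fewer cells of a type and less RNA per cell cannot be told apart.

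Other measures that moved between the pools are given beside the low value of Opn1sw in pool 1. The summed intensity of 9 measured lens genes was 26799, 126923 and 136385 in pools 1, 2 and 3. By the chosen probe sets, all 6 with signal in every pool were lowest in pool 1. A second probe set of Crygb was also lowest there, but a second one of Crybb2 was highest there, at 861, 735 and 789. The 3' to 5' ratio of the Actb control, a measure of RNA length, was 1.81, 1.27 and 1.3, and that of Gapdh 0.874, 0.788 and 0.812. Their part in the Opn1sw values was not tested. Signal was present for 8 of 10 measured rod markers, 1 of 4 bipolar, 3 of 5 Müller glia, 6 of 9 amacrine and horizontal cell, 5 of 5 ganglion cell and 2 of 6 pigment epithelium markers. Over all 8251 genes the share was 46.1%, and these short lists were not tested against it. Of the rod markers with signal, Prph2, Rom1, Rcvrn and Nrl are counted again below among genes of the cone pathway or photoreceptor fate. The pineal gland also uses phototransduction genes, and none of its 2 measured markers, Aanat and Tph1, had signal by the chosen probe set. Another Aanat probe set, of a type that transcripts can share, was above the bar at 355, 438 and 519.

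The rod counterparts were measured by the same arrays. With signal in every pool were 5 of their 7 measured genes, beside 46.1% of all 8251 genes. Gnat1 and Pde6a were under the bar in 1 pool each. Gnat1, which encodes the rod transducin alpha subunit, was at 219, 699 and 680 in pools 1, 2 and 3. Pool 1 lay under the bar, so that its deviation of -1.10 (log2) is not a measured level, and Gnat2 had no such low pool. The spread of Gnat1 exceeded that of probe sets of its brightness (limma adjusted p = 0.0162), a call that did not hold without scaling or after quantile normalisation (limma adjusted p = 0.543 and 0.394). That Gnat2 and Gnat1 differ in spread was not tested.

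Among the other rod genes of the cascade, the phosphodiesterase genes Pde6b and Pde6g, of a catalytic and an inhibitory subunit, had SDs of 0.23 and 0.17 (log2). The channel gene Cnga1 was at 360, 407 and 425, between 1.36 and 1.46 times the bar, where Cnga3 of cones was under it. With the 95th percentile as the bar, Cnga1 passed in 1 of 3 pools only. Sag, which encodes rod arrestin, had deviations of -0.15, 0.15 and 0.00. Of the 10 tested probe sets of the rod counterparts, 2 had excess spread, where 1.34% of all 6211 tested probe sets did. The second was 1 of 3 probe sets of Gnb1, the rod transducin beta subunit gene, at 3239, 3783 and 934 (limma adjusted p = 9.67e-05, or 0.108 without scaling). The chosen Gnb1 probe set was also lowest in pool 3 but did not pass, at 10928, 14984 and 5848 (limma adjusted p = 0.159).

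**Figure D3:**
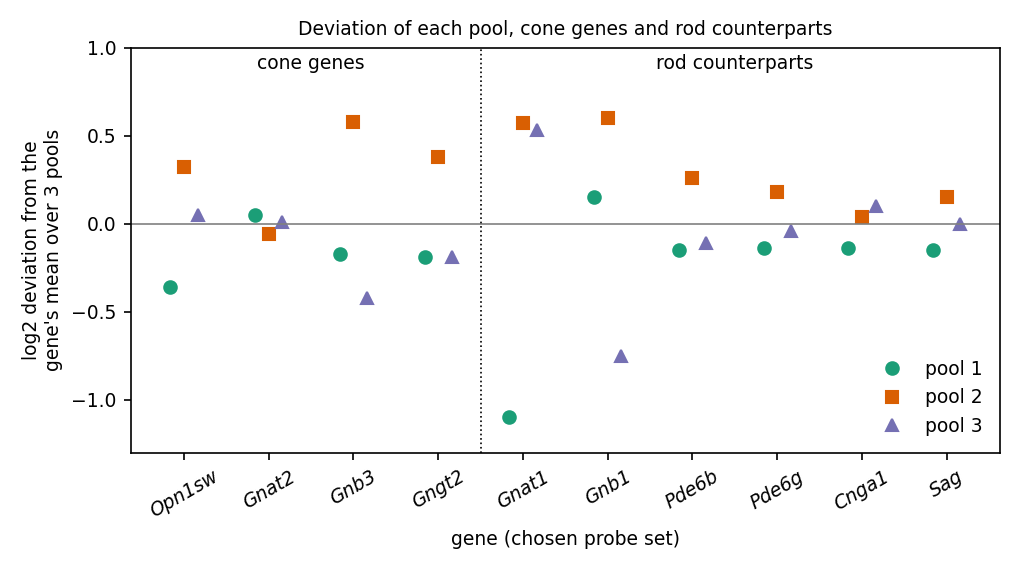
Log2 deviation of each pool from the gene's mean over the 3 pools for 4 cone genes (left; Gnb3 is from the wider pathway list) and 6 rod counterparts (right). The points of Gnat2 span 0.10 and those of Gnat1 span 1.67, with the pool 1 value of Gnat1 under the bar.

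Of 39 other genes of the cone pathway or of photoreceptor fate, 22 were measured. Of these, 15 had signal in every pool, beside 46.1% of all 8251 genes. Gnb3, which encodes the cone transducin beta subunit and is also used by ON bipolar cells, was at 4122, 6922 and 3463 in pools 1, 2 and 3, a mean of 4836 ± 1837 (SD, n = 3). As for Gngt2, its partner in cones, pool 2 was the highest, and its spread did not pass (limma adjusted p = 0.641). Pool 2 was the highest for 53.3% of the 15 genes of this list with signal, beside 57% of all genes with signal. After quantile normalisation these shares were 33.3% and 34.7%, so a highest pool 2 is nothing particular to the list. Guca1a, which encodes a calcium sensor that controls guanylate cyclase in rods and cones, was at 1061, 1552 and 990. Gucy2e, which encodes a photoreceptor guanylate cyclase, passed the bar in pool 2 alone, at 182, 371 and 185. Recoverin (Rcvrn), the calcium sensor of the opsin kinase, averaged 1217 ± 237 (SD, n = 3). Rgs9, which speeds the shut-off of transducin in rods and cones, was under the bar in every pool, while its partner Gnb5 averaged 859 ± 144 (SD, n = 3).

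Pde6d and Unc119, which encode carriers of lipid-modified phototransduction proteins, averaged 1447 ± 235 and 8034 ± 807 (SD, n = 3 each). The retinoid transporter gene Abca4 was at 1191, 1907 and 1069, again highest in pool 2. The disc rim gene Rom1 was at 2678, 3239 and 2613 by its chosen probe set (limma adjusted p = 0.992). The other Rom1 probe set, which has a letter suffix, did not follow, at 2128, 686 and 819, and had excess spread (limma adjusted p = 0.0097). Prph2, the partner of Rom1, was at 1261, 981 and 3901 (limma adjusted p = 0.000291). This Rom1 probe set and that of Prph2 were the 2 of 19 tested probe sets of the list with excess spread, where 1.34% of all 6211 tested probe sets had it. Neither of the 2 calls held without scaling (limma adjusted p = 0.272 and 0.0865).

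Among transcription factor genes of photoreceptor fate, Crx, Neurod1, Prdm1, Nrl, Nr2f1 and Nr2f2 had signal in every pool. Crx, which switches on many rod and cone genes, was at 5536, 8066 and 7203 in pools 1, 2 and 3. Pool 1 was lowest and pool 2 highest, as for Opn1sw. Without scaling Crx was highest in pool 3 (7508.7, against 7405.1 in pool 2), unlike Opn1sw. Neurod1, a bHLH factor of the lineage, was lowest in pool 2 instead, at 6944, 5129 and 7327. Prdm1, which holds photoreceptor precursors from the bipolar fate, averaged 1701 ± 111 (SD, n = 3), and the rod factor gene Nrl 627 ± 145 (SD, n = 3). Nr2f1 and Nr2f2, nuclear receptors known to pattern opsins along the dorsoventral axis in mice, averaged 510 ± 84.4 and 388 ± 36.3 (SD, n = 3 each). With the 95th percentile as the bar, Nr2f1 passed in 2 of 3 pools and Nr2f2 in 1 of 3. The 2 Nr2f2 probe sets disagreed. The chosen one, which also has a letter suffix, was between 1.28 and 1.47 times the bar. The other was under the bar, at 18.6, 2.72 and 60 in pools 1, 2 and 3.

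By their chosen probe sets Thrb, Rxrg, Onecut1, Sall3 and Rora did not have signal in every pool. Thrb, the thyroid hormone receptor gene needed for middle-wavelength opsin in mice, was at 206, 172 and 60.1. Rxrg, a retinoid receptor gene that restrains short-wavelength opsin in mouse cones, was at 176, 211 and 221. All 6 values were under the bars, as were those of Onecut1, a factor of early cone precursors, at 156, 80.9 and 153. Sall3, a zinc finger factor of mouse cones, passed the bar in pools 1 and 3, at 358, 258 and 336. The probe sets of Rora, a nuclear receptor gene that activates cone opsins, disagreed. The chosen one was at 15.1, 23.0 and 15.4, and one of a type shared between transcripts was at 826, 839 and 617.

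**Figure D4:**
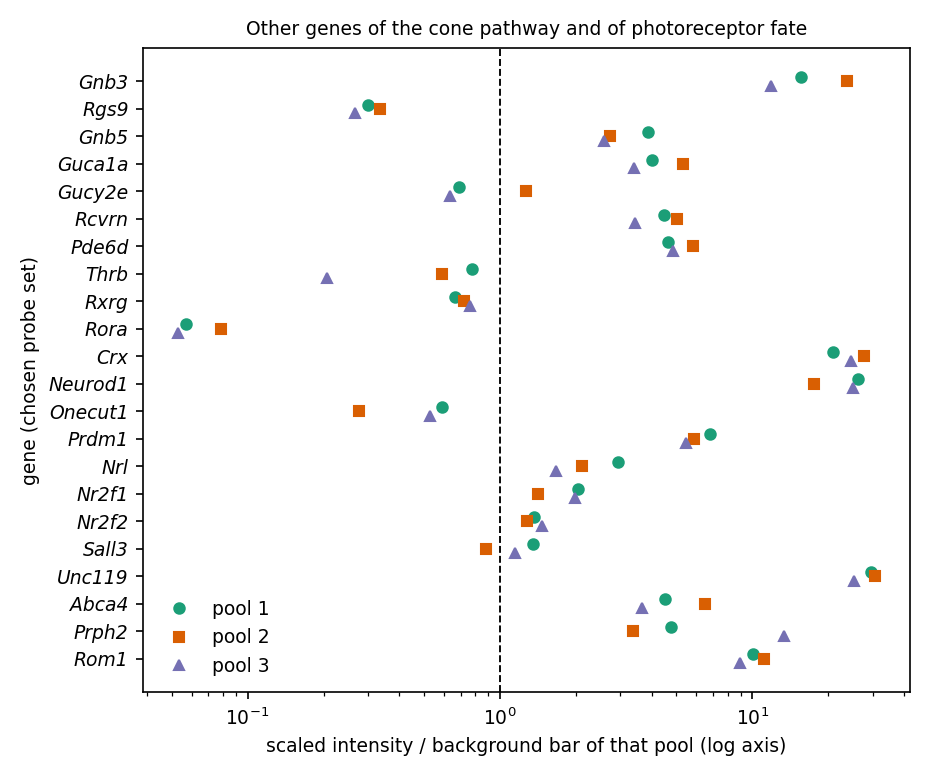
Scaled intensity divided by the bar of the same pool (horizontal log axis) for the 22 other measured genes, 1 chosen probe set each. For 15 genes all points lie right of the dashed line at 1; Thrb, Rxrg, Onecut1, Rgs9 and Rora lie left of it in every pool, and Gucy2e and Sall3 cross it.

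The genes whose pattern over the 3 pools was most like that of Opn1sw or Gngt2 were found among the 3799 other genes with signal, by the root mean square difference of log2 deviations. For Opn1sw these were Cpt2, a mitochondrial fatty acid enzyme gene, at 901, 1450 and 1193, then the casein kinase subunit gene Csnk2a2 and Pld3. Their differences were 0.0058, 0.0077 and 0.0081 (log2). For Gngt2 they were Dcps, a gene of mRNA cap breakdown, at 492, 730 and 491, then Nicn1 and Zfp637, with differences of 0.0028, 0.007 and 0.0084. With 3 samples many genes share a pattern: 280 genes lay within 0.1 of Opn1sw and 407 within 0.1 of Gngt2. Gnat2 varied too little between the pools for such a match.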

How the data were processed

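Total RNA of 3 retina pools was read on MG-U74Av2 arrays, per the labels' titles. The intensity values deposited by the authors are linear and had been scaled per array: the means trimmed by 2% at each end were 500.3, 500 and 500. Which software made them, with what background correction, is not given in the sources used here. Of 12488 rows, 66 controls were left out. Of the remaining 12422 probe sets, 10833 had 1 gene, 396 several and 1193 none named here. Of the 10833, 10817 were matched by gene ID to RefSeq (GRCm38.p6), whose symbols were then used.

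Arrays were scaled to a common median, floored at the 20th percentile (42.2) and put on the log2 scale. Each gene was represented by 1 probe set, one without a letter suffix before others, then the brightest. The bar was the 90th percentile of 55 measured genes, of 64 chosen, of unrelated tissues (liver, gut, skin, lung, kidney and others); 2 of them passed it in all pools. Excess spread used squeezeVar of limma 3.58.1 (R 4.3.3), robust and with mean level as covariate, an upper-tail F test at the highest prior degrees of freedom (279) and Benjamini-Hochberg adjustment at 0.05, and was tested on simulated data. Detection calls were not used here, and the number of arrays limits the precision. No 2 arrays were the same, with 11 or 12 equal values a pair.

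The members and lists were chosen with earlier results of these data known. Named were all members, their rod counterparts, the other pathway genes and, for members with signal and a log2 range above 0.5, the 3 genes of most similar pattern. Alternatives were other scalings, bars, floors, filters and priors, and leaving out each pool.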

Additional observations from a re-analysis of the deposited data

How the results depend on the processing

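The count of 3 cone genes with signal, always Opn1sw, Gnat2 and Gngt2, was the same under all 9 alternatives, where 38.1% to 59.4% of all genes passed. No cone probe set had excess spread under the 11 alternatives of limma's test; with dim probe sets kept, 1 of 5 (Cnga3, floored in pools 1 and 3) had an unadjusted p below 0.05. Without scaling 6 of 6211 probe sets had excess spread, against 83 as reported. Of the 4 calls named outside the cone genes (Gnat1, Gnb1, Prph2 and Rom1), 0 held without scaling, after quantile normalisation, with dim probe sets kept or without pool 2. Without pool 1, 2 held (Prph2 and Gnb1), and without pool 3, 1 (Rom1). Gnat1 and Rom1 were also lost without limma's robust option (adjusted p = 0.137 and 0.111), Rom1 without the mean level as covariate (0.0698), and Gnat1 was too dim to be tested in the brightest 25%. Leaving out 1 pool at a time gave Gnat2 means of 871 to 958, and the 958 without pool 2 alone lay more than its SD of 32.1 from 902. The arrays left were each time scaled anew to their own common median, so these means are on another intensity scale. The 958 is above every scaled value of Gnat2 given above, and such shifts do not measure dependence on a pool. With the same change of scale, Opn1sw ranged from 1526 to 1808 and Gngt2 from 652 to 764. The median deviation of the cone genes in pool 2 was 0.19 without scaling and 0.15 after quantile normalisation, against 0.32, and 0.13 without pool 1. In pool 1 it was 0 without pool 2, against -0.19. After quantile normalisation pool 1 was no longer the highest for Gnat2. Signal near the background limits what can be said of Opn1mw and Cnga3.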
